A study of Homo sapiens with 8 samples.

Results

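The microRNA response to TGF-β1 that A549 and LC2/ad have in common was examined in 4 of the 8 samples of the series, the control and the TGF-β1 sample of each line, over all 754 microRNA assays of the array. A549 and LC2/ad are established human lung adenocarcinoma cell lines. The treated cells received 5 ng/ml TGF-β1 for 72 h and the controls none, and all grew in the same medium with fetal bovine serum. The remaining 4 samples are the same pair of conditions in PC3 and PC9, labelled as lung adenocarcinoma lines too. Each line gave 1 sample per condition. The submitters did not authenticate the lines, and 1 thawed aliquot of each was used, so each line stands for 1 culture history.

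MicroRNAs are short RNAs that lower the output of the messenger RNAs they pair with, mainly through the seed, bases 2 to 8 of the mature strand. Each is cut from a hairpin that has a 5p and a 3p arm, and neighbouring hairpins can be cut from 1 transcript. TGF-β1 is a cytokine that signals through SMAD proteins and can move epithelial cells towards a mesenchymal state. The miR-200 family is the best known microRNA brake on that transition, because it represses the transcription factors ZEB1 and ZEB2.

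The sequences below are those of the microRNAs on which the comparison turns, 5′ to 3′, with the seed in capitals (RefSeq, GRCh38.p14, where 39 of the 40 assays looked up were matched). Assay names are those of the array, and # marks the arm that was taken for the passenger strand. The first set holds microRNAs that were higher after TGF-β1 in both lines, where the sign of miR-27b in LC2/ad depended on the normalizer.
miR-27a: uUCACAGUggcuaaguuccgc
miR-27b: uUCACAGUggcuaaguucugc
miR-27a#: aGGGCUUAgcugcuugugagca
miR-27b#: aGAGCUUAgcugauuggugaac
miR-24-2#: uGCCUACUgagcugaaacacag
miR-193b: aACUGGCCcucaaagucccgcu
miR-193b#: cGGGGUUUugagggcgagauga
miR-365: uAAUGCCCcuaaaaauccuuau
miR-181a-2#: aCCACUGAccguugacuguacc
miR-411: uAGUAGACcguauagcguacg
miR-323-3p: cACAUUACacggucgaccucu
miR-203: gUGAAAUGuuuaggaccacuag
miR-200a: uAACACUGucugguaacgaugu
miR-200b: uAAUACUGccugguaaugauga
miR-429: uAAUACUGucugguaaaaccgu
miR-135b: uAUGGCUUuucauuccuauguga
miR-27a and miR-27b share the seed UCACAGU but come from hairpins on 2 chromosomes, miR-27a from chr19:13836447-13836467 on the minus strand and miR-27b from chr9:95085505-95085525 on the plus strand. miR-24-2# lies in the same cluster as miR-27a, at chr19:13836326-13836347. miR-193b (chr16:14304017-14304038) and miR-365 (chr16:14309340-14309361) are neighbours. miR-411 (chr14:101023340-101023360) and miR-323-3p (chr14:101025782-101025802) belong to the imprinted 14q32 cluster. miR-200a, miR-200b and miR-429 lie together on chromosome 1, and miR-200b and miR-429 share the seed AAUACUG.

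The next set holds microRNAs that were lower in both lines, followed by seed relatives whose values are compared with theirs.
miR-1180: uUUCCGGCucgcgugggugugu
miR-671-3p: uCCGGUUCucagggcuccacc
miR-449a: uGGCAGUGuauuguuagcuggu
miR-33a#: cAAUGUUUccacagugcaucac
miR-106a: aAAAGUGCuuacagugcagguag
miR-93: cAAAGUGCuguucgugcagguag
miR-34a: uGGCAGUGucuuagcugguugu
miR-193a-3p: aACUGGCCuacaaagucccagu
miR-200c: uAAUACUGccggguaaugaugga
miR-1180 lies at chr17:19344513-19344534 on the minus strand and miR-671-3p at chr7:151238488-151238508. miR-449a (chr5:55170586-55170607) has the seed of miR-34a, GGCAGUG. miR-193a-3p has the seed of miR-193b, and miR-200c that of miR-200b and miR-429.

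The measurement is the threshold cycle (Ct) of a TaqMan PCR on cards A and B, in which 1 cycle less stands for 2 times the template. A Ct above 35 was taken as not detected. In A549 the control detected 249 assays and the TGF-β1 sample 256, and in LC2/ad they detected 281 and 261, so 319 assays were detected in at least 1 of the 4 samples and 435 in none. A pair of Ct values joined by "to" or "and" for a line gives the control first and the TGF-β1 sample next. Changes are log2 values, TGF-β1 minus control, of Ct differences from the mean of each card. The 4 U6 wells of a card had an SD of 0.141 to 0.399 cycles in these samples. On card A the Ct values are given to 6 decimals in both A549 samples and the LC2/ad control but to 2 decimals in the LC2/ad TGF-β1 sample, while on card B all have 2. In LC2/ad this difference goes with the treatment, and its part in the card A values was not tested. Values of card B are given beside some of the counts below. Markers of skeletal and heart muscle (8 assays) and liver (2 assays) were not detected in any of the 4 samples. Of 6 assays for nerve markers 4 were detected in each sample, as were both of the 2 for endothelium. The lowest Ct of a sample was 28.45 to 29.67 for nerve and 25.55 to 25.92 for endothelium, beside 29.63 to 30.95 for the epithelial list. Of 11 assays for epithelial markers, each A549 sample detected 6 and each LC2/ad sample 5, not the same ones before and after TGF-β1, with miR-205 at Ct 40 throughout.

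The question of the first comparison was which changes the lines share. The 215 assays with a Ct of no more than 35 in each of the 4 samples were tested with limma, with the line as a block. No assay passed an adjusted p of 0.05, 0 of 215 or 0%, and the smallest adjusted p was 0.223. With 2 lines, 1 residual degree of freedom is left per assay, and an exact sign-flip over the lines cannot go below p = 0.5. At an unadjusted p under 0.05 in limma, 25 assays were higher (11.6%) and 7 lower (3.26%), with a median standard error of 0.262. Standard errors (SE) here are those of limma, with variances pooled over assays, and are not the spread of the 2 changes of an assay. With the median of each card as the normalizer these counts were 31 and 3. The change had 1 sign in both lines for 53 assays that were higher (24.7%) and 81 that were lower (37.7%). Over the 150 assays with a Ct of no more than 32 in each of the 4 samples, 35 were higher and 59 lower in both lines, which became 59 and 31 with the card median as the normalizer, so small shared changes have no settled sign.

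**Figure D1:**
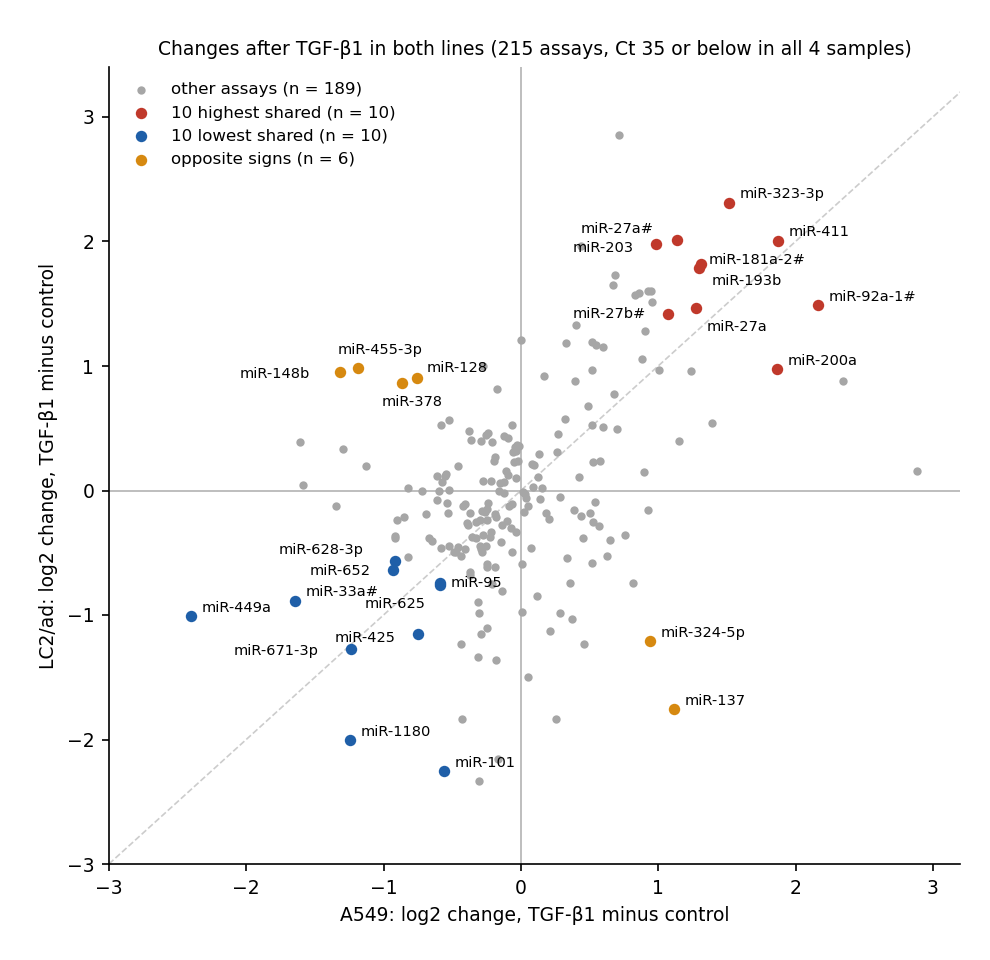
Log2 change (TGF-β1 minus control) in LC2/ad against that in A549 for the 215 tested assays, each a point, with the dashed line where both are equal. The 10 highest shared changes are all at or above 0.97 in both lines, and the 6 labelled assays of opposite sign lie in the upper left and lower right.

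A change of at least 2-fold in the same direction in both lines was found for 5 of the 150 assays at Ct 32 or below. The 4 that were higher (2.67%) were miR-193b, miR-27a, miR-27a# and miR-27b#, and the 1 that was lower (0.667%) was miR-1180. In A549 alone, 7 assays were at least 2-fold higher (4.67%) and 3 lower (2%). In LC2/ad, 16 were higher (10.7%) and 10 lower (6.67%). The 4 shared ones were thus 57.1% of the A549 list and 25% of the LC2/ad list. No assay moved 2-fold in opposite directions at this Ct limit, and 26 passed 2-fold in 1 line only. The LC2/ad split depended on the scaling, with 12 higher and 14 lower by U6, 11 and 18 by RNU44 and RNU48, and 22 and 3 by the card median. On card A, U6, RNU44 and RNU48 had log2 changes against the card mean of 0.345, 0.589 and 0.201 in LC2/ad. In A549 they had -0.259, -0.224 and 0.006. On card B they had -0.026, 0.156 and 0.196 in LC2/ad, and -0.027, -0.105 and -0.115 in A549. The part of these shifts in the LC2/ad values was not tested. Of the 4 shared higher ones, 2 were on card A (106 assays) and 2 on card B (44 assays), and the shared lower one was on card B. In LC2/ad, 11 higher and 8 lower assays were on card A, and 5 and 2 on card B. The sign was the same in both lines for 65.1% of the assays on card A and 56.8% on card B.

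Over the same 150 assays the changes of the lines correlated at r = 0.495 (Spearman's rho 0.388). This is a description across assays, which share the libraries and the normalizer and are not independent. It was 0.504 on card A (n = 106) and 0.488 on card B (n = 44). Without those of the 10 highest and 10 lowest shared assays that were among the 150, it was 0.363 (n = 143). They were ranked by changes of 1 sign in both lines, so the lower r follows from that choice. Over all 215 tested assays, r was 0.64 for 46 assays with a mean Ct under 26, 0.405 for 71 assays between 26 and 30, and 0.431 for 98 assays at 30 and above. The SD of the difference between the lines was 0.535 in the assays under Ct 26 and 1.03 in those at Ct 30 and above.

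The miR-27a and miR-27b hairpins held 3 of the 4 assays that were at least 2-fold higher in both lines. miR-27a had a Ct of 26.20 in the A549 control and 24.68 after TGF-β1, and 25.48 and 24.41 in LC2/ad. Both treated samples were lower in Ct than both controls. Its log2 changes were 1.28 and 1.47, a mean of 1.37 (SE 0.23, n = 2 lines, limma adjusted p = 0.223). The other arm, miR-27a#, was measured on the other card and changed from Ct 30.55 to 28.99 in A549 and from 29.64 to 27.86 in LC2/ad. Its log2 changes were 1.14 and 2.02.

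miR-27b#, from the paralogous hairpin on chromosome 9, had changes of 1.08 in A549 and 1.42 in LC2/ad, with Ct 30.87 to 29.37 in A549 and 31.06 to 29.88 in LC2/ad. Its guide miR-27b, which has the same seed as miR-27a, had only 0.58 and 0.24, and the LC2/ad value turned negative with U6 or with RNU44 and RNU48 as the normalizer. miR-24, encoded in both clusters and the most abundant of the group between Ct 19.83 and 20.82, had 0.55 and 1.17. miR-24-2#, which only the chromosome 19 hairpin gives, had 0.95 and 1.61. miR-23b was the exception, at -0.11 and 0.16, and miR-23a was listed at Ct 40 in all 4 samples. Of the 11 assays for this group 7 were tested, 6 were higher in both lines and none lower, with medians of 0.95 in A549 and 1.42 in LC2/ad. Over all 215 assays, 24.7% were higher in both lines. An unadjusted limma p under 0.05 was reached by 5 of the 7, beside 11.6% of all assays on the higher side. This group and those below were chosen with earlier results of these data known, and members of 1 cluster are not independent. Their counts beside all assays are therefore a description only. The medians over all 215 assays were -0.11 and -0.07.

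miR-193b and miR-365, which have neighbouring hairpins on chromosome 16, gave similar values. miR-193b went from Ct 24.13 to 22.57 in A549 and from 23.77 to 22.35 in LC2/ad. Both treated samples were again below both controls, and the changes were 1.31 and 1.82, a mean of 1.57 (SE 0.26, n = 2 lines, limma adjusted p = 0.223). The other arm, miR-193b#, had 0.96 and 1.52 on card B. miR-365 had Ct 27.60 to 26.45 in A549 and 27.24 to 26.36 in LC2/ad, which are changes of 0.90 and 1.28. miR-193a-3p, which carries the same seed from chromosome 17, had -0.03 and 0.10. miR-193a-5p had 0.10 and 0.21. Of the 5 assays of this group all were tested, and 4 were higher in both lines, beside 24.7% of all assays.

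miR-99, miR-100 and miR-125 are encoded beside let-7 genes in 3 clusters, and miR-99 and miR-100 are known to repress MTOR. All 7 tested assays of the 11 were higher in both lines, with medians of 0.44 in A549 and 1.33 in LC2/ad, and none was lower, against 24.7% of all assays that were higher in both lines. miR-100 had Ct 25.77 to 24.84 in A549 and 25.20 to 23.86 in LC2/ad, changes of 0.69 and 1.73. Both treated samples were below both controls in Ct. miR-125b had 0.86 and 1.59, with Ct 27.78 to 26.68 in A549 and 26.98 to 25.79 in LC2/ad. miR-99a had 0.44 and 1.96, and miR-125a-5p 0.17 and 0.92. An unadjusted limma p under 0.05 was reached by 2 of the 7, beside 11.6% of all assays, and none was 2-fold higher in both lines. The let-7 members themselves did not share a direction. Of 8 tested, 1 was higher in both lines and none lower, beside 24.7% and 37.7% of all tested assays. The let-7 medians were 0.32 in A549 and -0.13 in LC2/ad, where the latter turned positive with the card median as the normalizer.

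**Figure D2:**
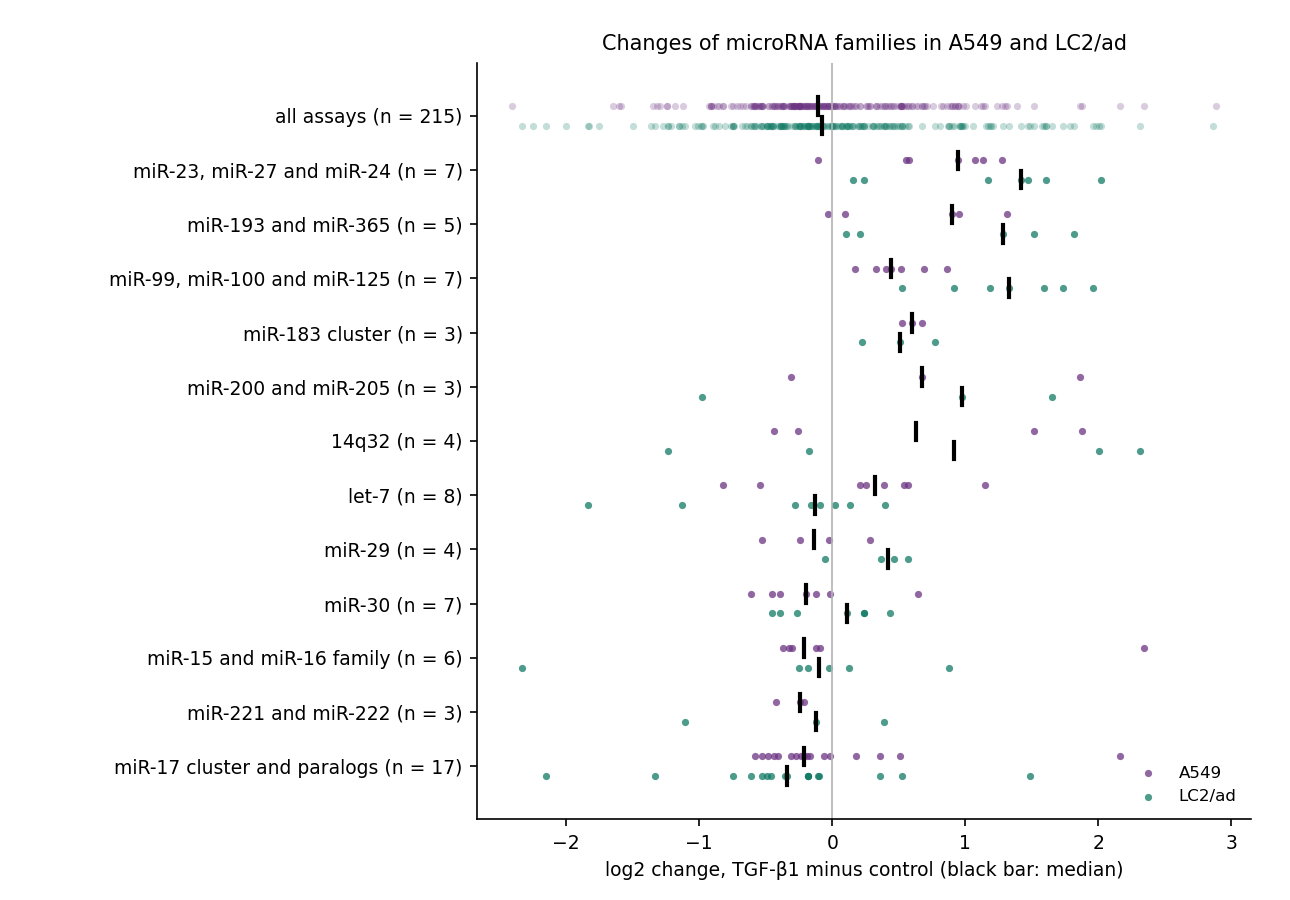
Log2 change of every tested assay of each microRNA family, A549 above LC2/ad, with the median as a black bar. The 7 assays of miR-99, miR-100 and miR-125 are above 0 in both lines, and most of the 17 of the miR-17 cluster are below.

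The epithelial microRNAs did not move as a block. miR-200a had Ct 32.25 to 30.14 in A549 and 33.83 to 33.25 in LC2/ad, changes of 1.86 and 0.97 (mean 1.42, SE 0.33, n = 2 lines, limma adjusted p = 0.223). miR-200b had Ct 30.54 to 29.63 in A549 and 31.80 to 30.55 in LC2/ad, changes of 0.67 and 1.65. miR-429, from the same cluster on chromosome 1, had Ct 33.51 and 30.88 in A549, a change of 2.39. In LC2/ad it was not detected before TGF-β1, at Ct 36.62, and had Ct 32.47 after it, which is at least 7.61-fold higher.

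From the other cluster, on chromosome 12, miR-200c had -0.31 and -0.98, with Ct 31.16 to 31.23 in A549 and 30.95 to 32.33 in LC2/ad. miR-141 was detected only in the A549 control, at Ct 34.56. miR-200c thus had the opposite sign from miR-200b and miR-429 in both lines although the 3 share a seed. In A549 its value was small, between -0.32 and -0.05 over the normalizers tried, and its raw Ct hardly moved. The signs of miR-200a, miR-200b and miR-200c were kept under each normalizer tried. miR-203, an epithelial microRNA best known from skin, had Ct 31.78 to 30.56 in A549 and 32.89 to 31.31 in LC2/ad, changes of 0.98 and 1.98. miR-135b, known to repress APC, had Ct 32.68 and 29.99 in A549, a change of 2.45. In LC2/ad it was listed at 40 before and had Ct 31.35 after, at least 16.5-fold higher. In the miR-183 cluster, known from sensory epithelia, all 3 tested assays were higher in both lines, beside 24.7% of all assays, with medians of 0.60 and 0.51. The medians of the miR-27, miR-193, miR-99 and miR-183 groups stayed above 0 in both lines under each normalizer.

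Among the assays measured in all 4 samples, miR-411 and miR-323-3p had the highest mean changes. They belong to the 14q32 cluster, which encodes many microRNAs from the maternal allele. miR-411 had Ct 34.63 to 32.51 in A549 and 33.01 to 31.40 in LC2/ad, changes of 1.88 and 2.01 (mean 1.94, SE 0.23, n = 2 lines, limma adjusted p = 0.223). miR-323-3p had Ct 34.41 to 32.66 in A549 and 32.98 to 31.06 in LC2/ad, changes of 1.51 and 2.31. All these lie at high Ct, near the limit of detection. Only 4 of the 60 assays of the cluster could be tested, and the other pair, miR-494 and miR-432#, had values below 0 with this normalizer, -0.26 and -0.18 for miR-494 and -0.43 and -1.23 for miR-432#. miR-411 and miR-494 lie 6309 bp apart. The study named microRNAs of this cluster from these samples, so its direction is not independent evidence.

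Detection in the cluster is given as a description only, since it rests on crossings of the Ct limit. Of its 60 assays, A549 detected 5 before and 9 after TGF-β1, while LC2/ad detected 12 before and 14 after. Over all 754 assays, the number detected went from 249 to 256 with TGF-β1 for A549. For LC2/ad it went from 281 to 261. miR-409-3p went from Ct 40 to 32.57 in A549, at least 4.01-fold, and from 32.67 to 29.22 in LC2/ad, a log2 change of 3.69. miR-539 went from 40 to 31.45 in A549, at least 9.90-fold, and had 2.00 in LC2/ad. miR-376c was at least 2.81-fold higher in A549, where its control lay at Ct 35.19, and had 2.15 in LC2/ad. miR-495 went against this, detected only before TGF-β1 in A549 (Ct 34.61 and 35.43) while it had 3.21 in LC2/ad. Of the 3 that the series title names, miR-487b was detected only after TGF-β1 in both lines, from Ct 37.77 to 34.44 in A549 and from 38.36 to 32.52 in LC2/ad. miR-134 had Ct 40 and 35.10 in A549, above the limit in both, and 36.62 and 32.59 in LC2/ad. miR-655 stayed above Ct 35 in all 4. Markers of fibroblasts and smooth muscle were also at lower Ct after TGF-β1 in LC2/ad. Of their 8 assays none was detected in A549, with a lowest Ct of 40 before and 35.68 after, and 1 before and 3 after in LC2/ad, with a lowest Ct of 33.74 and 31.33. In bulk RNA, more cells of a type and more RNA per cell cannot be told apart. The 3 were miR-145 (35.95 to 31.33), miR-143 (33.74 to 31.94) and miR-199a-3p (40 to 34.48). Their part in the 14q32 values was not tested.

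**Figure D3:**
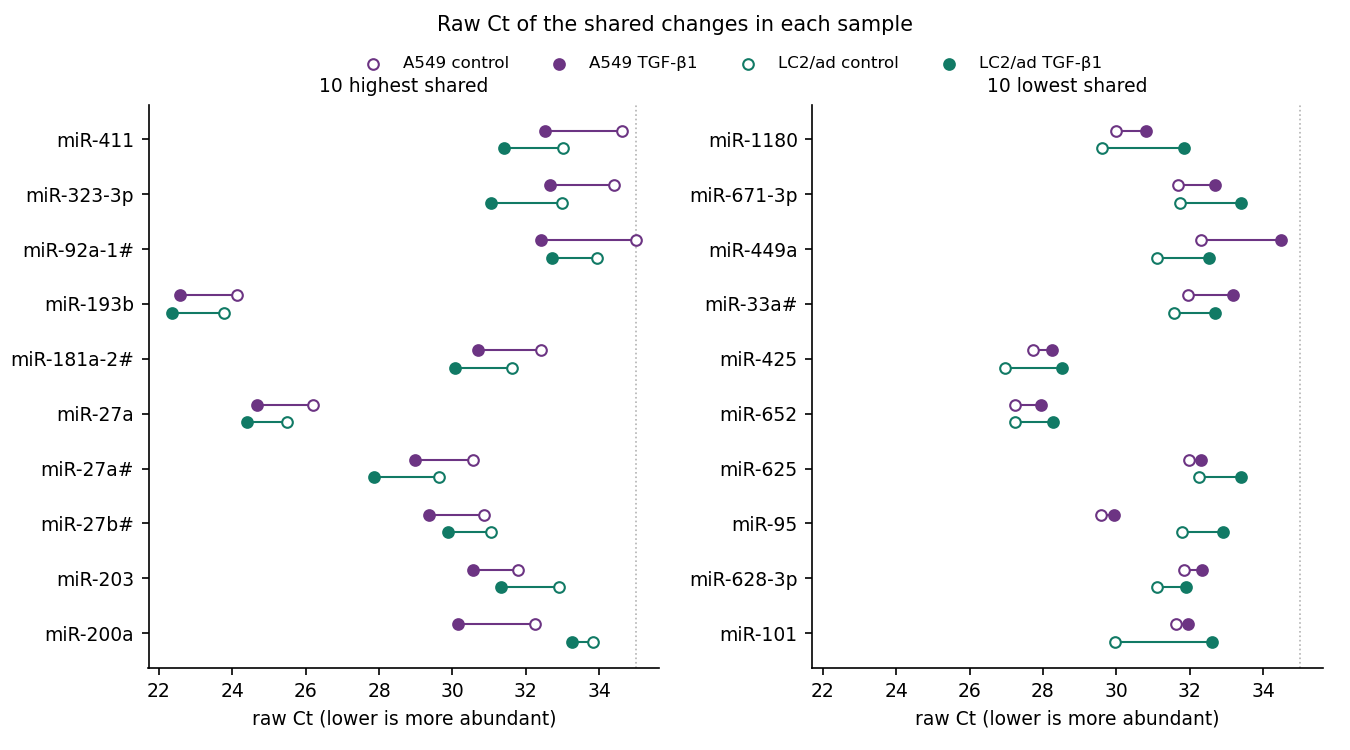
Raw Ct of the 10 highest (left) and 10 lowest (right) shared changes, with open circles for controls and filled ones for TGF-β1 samples, and a dotted line at Ct 35. miR-193b and miR-27a, between Ct 22.35 and 26.20, are the most abundant, while miR-411, miR-323-3p and miR-92a-1# start close to the limit.

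The others among the 10 highest shared assays were passenger arms. miR-181a-2# had Ct 32.41 to 30.69 in A549 and 31.63 to 30.08 in LC2/ad, changes of 1.30 and 1.79. Its guide miR-181a had 0.52 and 1.19. Both belong to the list of those that TGF-β is known to raise in other cells, of which 8 were tested. Of these, 3 were higher and 4 lower in both lines, beside 24.7% and 37.7% of all tested assays. The medians of the list were 0.11 and -0.37. miR-92a-1# had Ct 34.99 to 32.40 in A549 and 33.95 to 32.70 in LC2/ad, changes of 2.17 and 1.49. Its A549 control lay just inside the limit of 35. Its guide miR-92a, which 2 hairpins encode, had -0.24 and -0.10, signs that change with U6 in A549 and with the card median in LC2/ad.

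Of the assays lower in both lines, miR-1180 gave the lowest values at Ct 32 or below. It had Ct 29.98 to 30.80 in A549 and 29.61 to 31.85 in LC2/ad, changes of -1.24 and -2.0 (mean -1.62, SE 0.31, n = 2 lines, limma adjusted p = 0.223). Both treated samples were above both controls in Ct. miR-671-3p had Ct 31.68 to 32.68 in A549 and 31.74 to 33.41 in LC2/ad, and its changes of -1.24 and -1.27 were nearly equal. miR-449a, a microRNA of multiciliated cells that shares its seed with miR-34a, had -2.40 and -1.01, with Ct 32.31 to 34.48 in A549 and 31.12 to 32.53 in LC2/ad. miR-34a, between Ct 26.55 and 27.55, had 0.21 and -0.23. miR-449b, 114 bp from miR-449a, had 0.92 and -0.16, so that the lower value was not shared by the cluster.

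miR-33a#, from an intron of SREBF2, had -1.64 and -0.88, and its guide was listed at Ct 40 in all 4 samples. miR-425 had Ct 27.73 to 28.24 in A549 and 26.97 to 28.52 in LC2/ad, changes of -0.75 and -1.15. Its neighbour miR-191, 470 bp away on chromosome 3, had -0.85 and -0.21. The others among the 10 lowest were miR-652 (-0.93 and -0.64), miR-625 (-0.59 and -0.76), miR-95 (-0.59 and -0.74), miR-628-3p (-0.91 and -0.56) and miR-101 (-0.56 and -2.25). miR-101, known to repress EZH2, was far lower in LC2/ad, where Ct went from 29.97 to 32.62, than in A549, where it went from 31.63 to 31.95.

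The miR-17 cluster and its paralogs, which are targets of MYC and promote proliferation, were the largest group on the lower side. Of 17 tested assays, 11 were lower in both lines and 1 was higher, against 37.7% and 24.7% of all assays, with medians of -0.22 in A549 and -0.34 in LC2/ad, against -0.11 and -0.07 for all assays. None of the 17 reached an unadjusted limma p under 0.05 on the lower side. Of its 6 members with the seed AAAGUGC, 5 had values below 0 in both lines with this normalizer, and miR-106b had 0.18 and -0.18. miR-17 had -0.53 and -0.18, miR-20a -0.19 and -0.61, miR-20b -0.44 and -0.53, miR-106a -0.58 and -0.46, and miR-93 -0.31 and -1.34. The median of the group stayed below 0 in both lines under each normalizer, but came to -0.02 in A549 with U6.

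Both arms of a hairpin are separate assays, on different cards for 30 of the 42 hairpins with both arms tested. The arms had the same sign in 29 hairpins in A549 and in 29 in LC2/ad, and all 4 values had 1 sign in 17. Among the higher ones these were miR-27a, miR-27b, miR-24, miR-193b, miR-181a, miR-183, miR-99b, miR-125a and miR-31. miR-31, named here after its values were seen, had 0.83 and 1.57 on card A (Ct 20.75 to 19.68 in A549, 21.06 to 19.88 in LC2/ad), and miR-31# had 0.93 and 1.61 on card B. Among the lower ones were miR-93, miR-192, miR-625 and miR-628. For miR-628-5p the sign depends on the normalizer in both lines, and for miR-27b in LC2/ad. Assays of different hairpins within 10 kb of each other formed 37 pairs, of which 27 had the same sign in A549 and 28 in LC2/ad. Many of these pairs share an assay, so they are not independent. Of all 215 tested assays, 89 were higher in A549 and 98 in LC2/ad, and 24.7% were higher and 37.7% lower in both lines. The share of unrelated assay pairs with the same sign was not computed, so the counts of arms and neighbours are a description only.

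**Figure D4:**
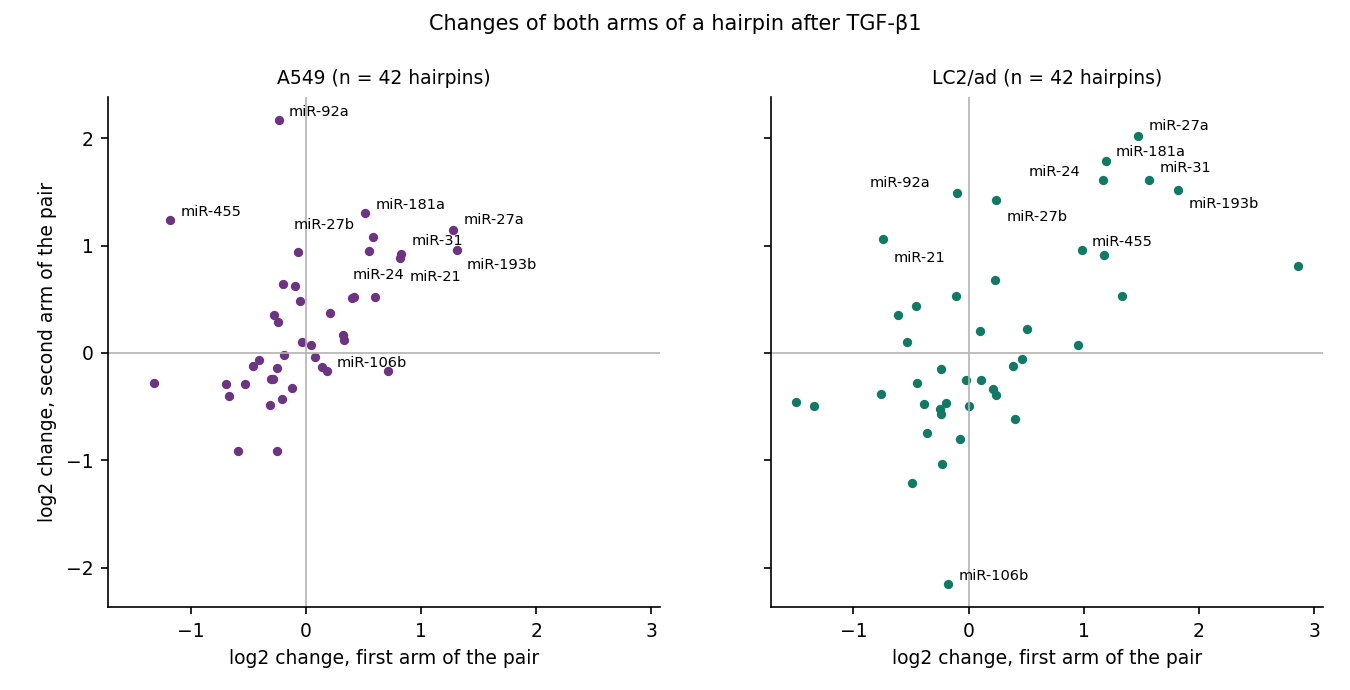
Log2 change of the second arm against the first arm of each of 42 hairpins, in A549 (left) and LC2/ad (right), where the first arm is the one without # or, with named arms, the first on the cards. miR-27a, miR-193b and miR-31 lie in the upper right in both lines, while miR-21 is there in A549 only.

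For other assays the lines had opposite signs. With 1 sample per condition and line, no difference between the lines could be tested. The widest gap with opposite signs was that of miR-137, a neural microRNA, at 1.12 in A549 (Ct 31.78 to 30.42) and -1.76 in LC2/ad (Ct 31.00 to 33.15). miR-324-5p had 0.94 and -1.21. In the other direction, miR-148b had -1.32 and 0.95, miR-455-3p -1.18 and 0.98, 1 of the 2 assays named miR-378 -0.86 and 0.87, and miR-128 -0.76 and 0.90. The other miR-378 assay, between Ct 26.08 and 26.25, had -0.45 and 0.20. Of these 6, 5 were on card A. miR-455-5p, the other arm of the miR-455-3p hairpin, had 1.24 and 0.96, so in A549 the arms of this hairpin had opposite signs.

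miR-21, a microRNA often reported as raised in tumours, had 0.81 in A549 (Ct 22.84 to 21.78) and -0.74 in LC2/ad (Ct 22.55 to 23.69), and kept these signs under each normalizer. Its other arm miR-21#, on card B, had 0.89 and 1.06. Among the 150 assays at Ct 32 or below, changes of at least 2-fold in LC2/ad with less than 0.3 log2 in A549 were those of let-7b (-1.84), miR-301a (-1.16), let-7d (-1.13) and miR-221 (-1.10), and none of the 150 met this rule the other way. These LC2/ad assays were all on card A, and which of them met the rule depended on the normalizer. Over the normalizers tried, the LC2/ad change came to as little as -0.89 for miR-301a, -0.86 for let-7d and -0.83 for miR-221. The A549 change of let-7b rose to as much as 0.51. With Ct values up to 35, the rule was also met in LC2/ad by miR-106b# (-2.15), miR-886-3p (-1.50), 1 of the 2 assays named miR-629 (-1.36) and miR-642 (1.21). In A549 it was then met by miR-1269 (2.88), miR-1254 (-1.58), miR-375 (-1.35) and miR-942 (-1.12). The SD of the difference between the lines was 0.636 on card A and 0.697 on card B. Among groups, miR-29, known to repress collagens, had 0 of 4 tested assays with 1 sign in both lines, beside 62.3% of all 215 tested assays. miR-30 had 0 of 7 higher and 2 lower in both lines, beside 24.7% and 37.7% of all tested assays. Their medians were -0.13 and 0.42 for miR-29, where the first turned positive with U6 or the card median, and -0.20 and 0.11 for miR-30, where the second turned negative with U6 or with RNU44 and RNU48.

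Some assays crossed the limit of Ct 35 and give bounds only. Detected only after TGF-β1 in both lines were miR-34c-5p, miR-190, miR-487b and miR-1282, and only before it miR-486-5p, miR-503, dme-miR-7 (an assay named for the fly microRNA) and miR-99a#. Some of these crossings were narrow, such as that of miR-190 from Ct 35.60 to 33.67 in A549 and from 35.37 to 34.44 in LC2/ad. miR-1282 was listed at 40 in both controls, and at 34.55 and 33.89 after. Another 8 assays were detected only after in 1 line and only before in the other. Where A549 detected an assay only after TGF-β1 and LC2/ad measured it in both samples, LC2/ad was higher in 9 of 9. Where A549 detected it only before, LC2/ad was lower in 3 of 6. With the lines exchanged, A549 was higher in 3 of 5 and lower in 6 of 8. Over all 215 tested assays, 98 were higher in LC2/ad and 89 in A549, and the counts beside them here are small.

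The last comparison asked whether the shared changes differ from those of PC3 and PC9. Of the 168 assays detected in each of the 8 samples, 0 passed an adjusted p of 0.05 in the limma interaction test (0%), and the smallest adjusted p was 0.452. At an unadjusted limma p under 0.05 there were 17 (10.1%), 11 with a higher change in A549 and LC2/ad and 6 with a lower one. The split was 0 and 11 with U6, 0 and 7 with RNU44 and RNU48, and 21 and 1 with the card median. In PC9 the log2 changes of U6, RNU44 and RNU48 against the card mean were themselves between -0.91 and -0.50. The smallest p was that of miR-1180, with -1.62 in A549 and LC2/ad and 0.19 in PC3 and PC9, a difference of -1.82 (SE 0.38, limma adjusted p = 0.452). The next were miR-21# with a difference of 1.39, miR-425 with -1.31, miR-193b with 1.41 and miR-24-2# with 1.32. miR-193b had -0.11 in PC3 and 0.43 in PC9, and miR-27a had 0.17 and 0.71. None of these differences passed the adjusted threshold, which does not show that the 4 lines respond alike.

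**Figure D5:**
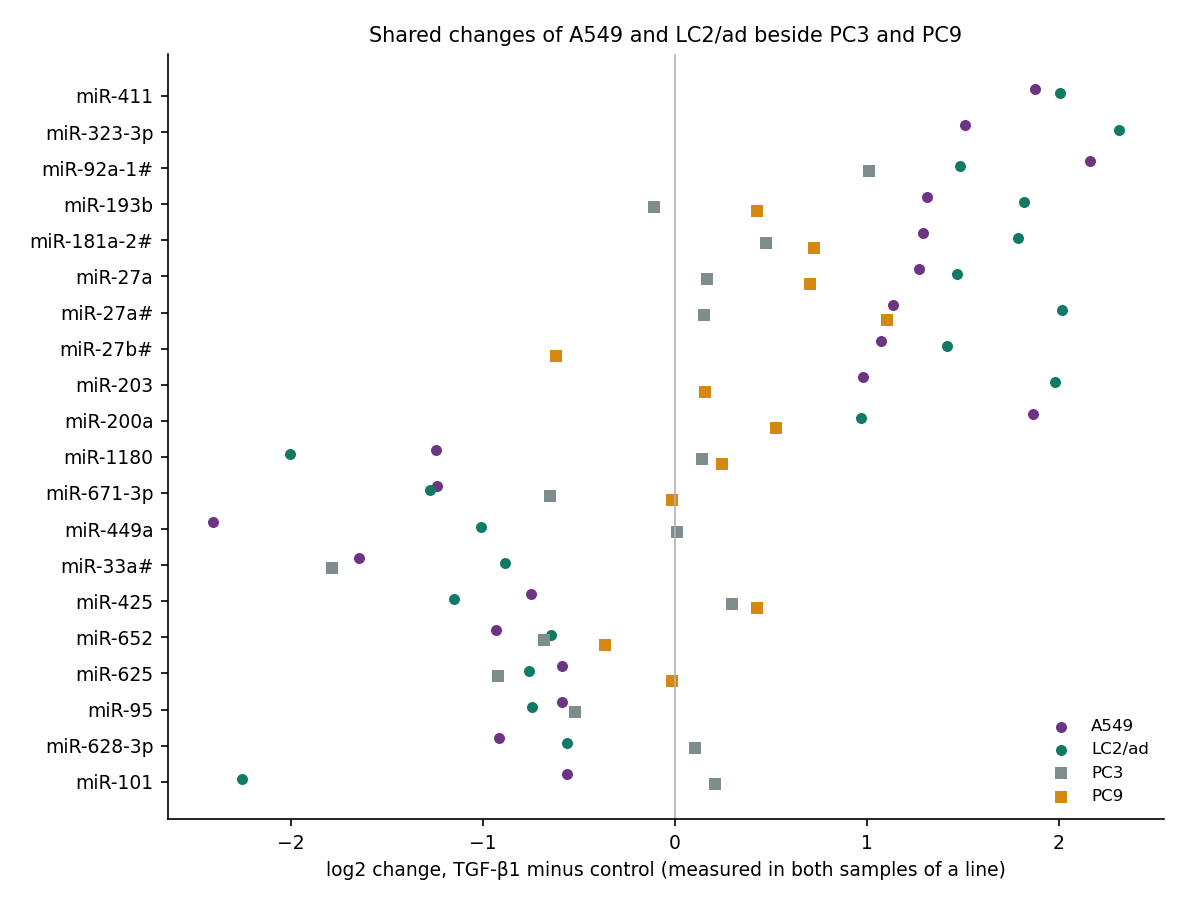
Log2 change of the 10 highest and 10 lowest shared assays in all 4 lines, circles for A549 and LC2/ad and squares for PC3 and PC9, drawn where both samples of a line had Ct 35 or below. For miR-1180 and miR-425 the squares lie on the other side of 0 from the circles.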

How the data were processed

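TaqMan PCR after reverse transcription measured microRNAs in the control and TGF-β1 sample of A549, LC2/ad, PC3 and PC9, on total RNA from TRIzol, per the labels' protocols. The deposited tables hold raw Ct values (754 assays, 377 per card, 40 where nothing amplified) and, per the file headers, a linear ratio that the authors calibrated to the A549 control. Recomputing it as 2 to the power of the U6-normalized Ct difference gave the deposited ratio to within 4.07e-06 on the log2 scale. The PCR software and its thresholds: not given in the sources used here. No read depth applies, and precision is limited by 1 sample per line and condition.

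As normalizer of a sample and card served its mean Ct over the assays with a Ct of no more than 35 in each of the 8 samples, of which card A had 117 and card B 51. The level is that mean minus the Ct, and the change is TGF-β1 minus control. Groups come from the treatment label, since the source name words exposure the other way round. Pairing is by cell line, from the labels. limma 3.58.1 in R 4.3.3 fitted line and treatment to 4 samples. For the comparison with PC3 and PC9 it fitted line, treatment and the interaction of treatment with the pair of lines to 8. The pairs are A549 with LC2/ad and PC3 with PC9, so variation within each pair is the error term. Tests were two-sided, with Benjamini-Hochberg adjustment over all assays tested. Residual variances were pooled over assays (prior df 2.339). The script was tested on simulated data. No label reports repeat cultures of a condition, so p-values rest on the spread between the lines.

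A change with 1 sample above Ct 35 is a bound, computed with that sample at Ct 35 and written as at least. Fold counts used Ct 32 or below in all 4 samples. Named assays were any past the threshold, to which were added, if they were under 20, the 10 highest and 10 lowest with 1 sign in both lines by the smaller of the 2 changes, the 6 widest gaps of opposite sign with at least 0.5 in each line, up to 6 per line with at least 1 there and under 0.3 in the other, those detected only after or only before in both lines, miR-21, miR-135b, miR-134, miR-655, miR-487b and the miR-200 family, up to 4 examples per list, and the other arms of the first sets. let-7b and let-7d among these belong to the let-7 list too. miR-191, miR-31, miR-34a, miR-449b, miR-455-5p, miR-494, miR-432#, the members of the AAAGUGC seed beyond 4, the single-line assays above Ct 32 and those in the closing observations were added after their values were seen. The members and lists were chosen with earlier results of these data known. Alternatives were other normalizers, Ct limits and fold limits, undetected values set to 35, no block, a spread shared by all 8 samples, a mean-variance trend and each line left out, plus each card alone, which was added after seeing the decimals. matplotlib 3.10.9 drew the figures.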

Additional observations from a re-analysis of the deposited data

Results flagged for a closer look

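The 6 assays with opposite signs in the lines were picked out because the sample pair of A549 moved one way and that of LC2/ad the other. The difference was not tested, since each line has 1 sample per condition. Written as the log2 change in LC2/ad minus that in A549, it was -2.87 for miR-137, 2.27 for miR-148b, 2.16 for miR-455-3p, -2.16 for miR-324-5p, 1.73 for 1 of the 2 assays named miR-378 and 1.66 for miR-128. The sign of each was kept under each normalizer tried. With U6 as the normalizer, the value was -3.48 for miR-137, 1.67 for miR-148b, 1.56 for miR-455-3p, -2.76 for miR-324-5p and 1.06 for miR-128.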

How the results depend on the processing

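No assay passed an adjusted p of 0.05 in limma under any of the 15 alternatives of the paired test or the 8 of the comparison with PC3 and PC9, where the smallest adjusted p was 0.0625 (a spread shared by all 8 samples) and 0.164 (card median). Without the replicate block the paired test gave 20 assays higher and 6 lower at an unadjusted p under 0.05, against 25 and 7 with it. Of the single assays, miR-92a (mean change 0.085) and miR-628-5p (0.010) turned positive with the card median as the normalizer. The median change of all tested assays was -0.08, and -0.11 with U6, -0.22 with RNU44 and RNU48 and 0.07 with the card median.

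At an unadjusted p under 0.05, the paired test gave 6 to 15 assays higher when A549 or LC2/ad was left out, and 5 to 12 lower, where the line left alone is assumed to vary like PC3 and PC9. Without LC2/ad (replicate 2) the counts were 6 and 5, without A549 (replicate 1) 15 and 12. Card B alone gave 8 higher and 2 lower. The lower count was 4 with U6 and with the authors' deposited ratio, 3 with the card median, 3 at Ct 32, 13 at Ct 38, 12 with undetected values set to 35 and 11 with a spread shared by all 8 samples. In the comparison with PC3 and PC9, the higher count was 0 with U6, with RNU44 and RNU48 and with the deposited ratio, 21 with the card median and 6 with the normalizer of the 4 samples. It was 2 to 9 when a line was left out, and 2 without LC2/ad. The lower count was 11 with U6 and the deposited ratio, 1 with the card median and 2 at Ct 32, and 4 to 9 when a line was left out.

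Shared 2-fold changes numbered 2 higher and 0 lower at Ct 30, 8 and 3 at Ct 35, 15 and 3 at 1.5-fold, 2 and 0 on card A, 2 higher on card B and 8 higher with the card median. Changes in 1 line only numbered 16 at Ct 30, 49 at Ct 35 and 6 on card B. Opposite 2-fold changes numbered 1 at Ct 35, 2 at 1.5-fold, 2 with U6 and the deposited ratio and 1 with RNU44 and RNU48. Leaving out a line gives no shared count, so it was not computed. Precision is limited by 1 sample per line and condition, and at high Ct by few template copies.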

Other observations

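Values outside the comparisons add some detail. miR-582-3p had the highest LC2/ad change of the tested assays, 2.86, with Ct 34.98 and 32.52, and 0.71 in A549. miR-218, carried in introns of the SLIT genes, had nearly equal changes, 1.00 in A549 and 0.97 in LC2/ad, with Ct 30.52 to 29.28 in the first and 29.91 to 29.34 in the second. miR-15a had 2.35 and 0.88, with Ct 34.15 to 31.57 in A549, near the limit before TGF-β1, and 32.50 to 32.02 in LC2/ad. miR-16, which shares its seed, had -0.09 and 0.13. It has a hairpin beside that of miR-15a on chromosome 13 and another on chromosome 3, so its assay does not report the miR-15a cluster alone. let-7e, cut from the cluster of miR-99b and miR-125a, had 1.15 in A549 and 0.40 in LC2/ad. miR-142-3p, a marker of blood cells, was detected in all 4 samples near the limit, between Ct 32.52 and 34.46, and had 0.40 and 0.88. Of the 9 assays of the blood list, 2 were detected before and 2 after TGF-β1 in A549, and 3 and 1 in LC2/ad. miR-126, a marker of endothelium, was between Ct 25.55 and 25.92, with -0.05 and 0.23. All of these were chosen after their values were seen.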
